A study of Mus musculus with 8 samples.

Results

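A set of 10 transcription factor genes with roles in making and keeping fat cells were followed in epididymal white adipose tissue (eWAT), a visceral fat depot, taken from obese male mice. The genes were Pparg, Cebpa, Cebpb, Cebpd, Klf15, Ebf1, Ebf2, Rxra, Nr1h3 and Zfp423, named by symbol and found by their Ensembl identifiers, 10 of the 55487 gene identifiers in the tables. RNA sequencing was done on 8 mice of strain C57BL/6, all made obese by a high-fat diet (HFD) and all with floxed Slc16a1 alleles, the gene of the lactate carrier MCT1. The 4 WT mice (numbers 2, 3, 4 and 5) had the floxed alleles alone. The 4 AKO mice (numbers 3, 8, 9 and 11) also carried AP2-cre, and their genotype label is Slc16a1 -/-. In AP2-cre the promoter of Fabp4 (aP2) drives the recombinase, a promoter that is active in fat cells and is known to act in some macrophages and other cells as well. No group carried Cre without floxed alleles, so the transgene and the deletion cannot be told apart, and the labels give no age.

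Fat cells arise from progenitors through a relay of transcription factors. The C/EBP proteins C/EBPβ and C/EBPδ act early and switch on Pparg and Cebpa, whose products then keep each other active and turn on the genes of lipid storage. PPARγ binds DNA as a heterodimer with RXRα, the product of Rxra. Zfp423 and the EBF factors mark or commit progenitors, KLF15 acts late and in glucose and amino acid use, and LXRα, the product of Nr1h3, senses oxysterols in fat cells and macrophages.

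Levels are TPM, a measure per transcript length that sums to the same total in each library, so different genes can be compared, but read depth is unknown. A gene can have several rows, and these were summed. Between 13968 and 14884 genes per library reached 1 TPM. Slc16a1 itself did not check the labels: its summed level was 21.3 ± 5.78 TPM in WT against 24.0 ± 2.54 in AKO (mean ± SD, 4 mice each, as for all later values with ±), and the ranges overlapped (limma FDR = 0.850), so WT and AKO stand for the labelled genotypes throughout. The markers of fat cells, checked for the tissue label (Adipoq, Plin1, Lipe, Lep and others), were all detected, 12 of 12, with a summed level of 16335 to 37369 TPM in WT and 16289 to 26845 in AKO. The pad held other cells too. The 12 macrophage markers summed to 2317 to 5406 TPM in WT and 3718 to 6541 in AKO, the 10 progenitor markers to 1426 to 1785 and 1523 to 2089, and the 5 B cell markers to 3.85 to 6.92 and 7.04 to 10.4 in the same order. Of 5 epididymis markers 2 were listed at 0 in each mouse, but WT mouse 4 stood apart, with Crisp1 at 7.57 TPM (0.51 or less in the others) and Defb42 at 1.58 (0.22 or less). In whole tissue, fewer cells of a type and less RNA per cell cannot be told apart.

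A few start-site windows are shown because Pparg and Cebpa levels went together across mice and Klf15 had the largest genotype difference of the 10 genes. Each is the 250 bases before a RefSeq start in GRCm38.p6, plus strand, 5′ to 3′. These positions belong to that build and not to the mm9 build named for the deposited files. The Pparg gene has separate starts, and the GENCODE M21 transcripts that begin there encode proteins of 475 residues (PPARγ1, chr6:115360894-115361143) and 505 residues (PPARγ2, chr6:115421816-115422065). The Cebpa window is chr7:35119043-35119292 and the Klf15 window, before a transcript for 415 residues, is chr6:90462326-90462575. Capitals mark matches, on either strand, to TTGCNNAA (C/EBP type), CCAAT, an EBF palindrome, CCACCC (the CACCC box of KLF proteins), AGGTCA (the core site of nuclear receptors) and TATAAA.
Pparg, PPARγ1 start: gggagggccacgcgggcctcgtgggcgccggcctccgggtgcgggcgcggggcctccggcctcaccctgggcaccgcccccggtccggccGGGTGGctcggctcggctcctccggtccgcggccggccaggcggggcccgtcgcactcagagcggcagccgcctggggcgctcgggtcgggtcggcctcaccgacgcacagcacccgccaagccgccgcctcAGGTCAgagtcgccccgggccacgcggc
Pparg, PPARγ2 start: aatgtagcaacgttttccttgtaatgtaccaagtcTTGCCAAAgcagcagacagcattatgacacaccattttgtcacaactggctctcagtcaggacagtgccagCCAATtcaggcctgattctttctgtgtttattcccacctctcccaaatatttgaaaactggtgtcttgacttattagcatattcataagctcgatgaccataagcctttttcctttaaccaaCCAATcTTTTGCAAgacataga
Cebpa: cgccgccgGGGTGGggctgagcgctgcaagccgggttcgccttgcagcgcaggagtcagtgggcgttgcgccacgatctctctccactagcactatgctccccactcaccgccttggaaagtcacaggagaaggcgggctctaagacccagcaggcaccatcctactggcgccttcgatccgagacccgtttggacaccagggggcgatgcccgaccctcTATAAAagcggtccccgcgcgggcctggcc
Klf15: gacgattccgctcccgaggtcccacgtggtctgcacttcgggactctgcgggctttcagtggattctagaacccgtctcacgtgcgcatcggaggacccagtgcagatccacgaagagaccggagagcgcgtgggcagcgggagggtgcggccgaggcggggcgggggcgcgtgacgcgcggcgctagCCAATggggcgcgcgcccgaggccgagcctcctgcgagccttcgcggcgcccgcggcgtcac
The PPARγ2 window held C/EBP-type matches that begin 215 and 16 bases before the start and CCAAT at 144 and 22 bases. The PPARγ1 window shown held neither and had AGGTCA 28 bases before the start. In a further Pparg window, not printed here (chr6:115362099-115362348), 3 GENCODE M21 transcripts begin, with coding lengths of 96 and 475 residues. That window held CCAAT 83 bases before its start, TATAAA at 29 bases and AGGTCA at 9 bases. The GC content of the 300-base windows, which run 50 bases past the start, was 40.3% at PPARγ2. It was 80.3% at the PPARγ1 window shown and 62.7% at the further Pparg window. The Cebpa window had TATAAA 30 bases before the start, and the Klf15 window had CCAAT at 62 bases. Of 32851 windows of this length, 10.8% hold a C/EBP-type match, 37.4% CCAAT, 0.904% the EBF palindrome, 31.5% CCACCC, 16.3% AGGTCA and 13.6% TATAAA. Among the 14 windows of the 10 genes (8 genes matched a window), 2 held a C/EBP-type match, 3 CCAAT, 0 the EBF palindrome, 9 CCACCC, 4 AGGTCA and 3 TATAAA. These counts are not of separate windows: the Nr1h3 windows overlap and share a CCACCC match that is counted in both. Some other genes also have several windows. No base shown lay in 2 of the marked matches. GGGCGG, searched but not marked, was in 35.7% of all windows and 7 of the 14, the DR1 element of PPARγ and RXRα in 0.0396% and 0, and the glucocorticoid receptor element in 0.475% and 0. A match describes the sequence and was not tested for binding or for a relation to the levels or genotype differences.

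Cebpa was the most abundant of the 10 transcripts and Ebf2 the least. Mean levels over the 8 mice were 340.6 TPM for Cebpa, 156 for Pparg, 109.6 for Nr1h3, 56.8 for Rxra, 30.02 for Ebf1, 29.3 for Klf15, 23.9 for Zfp423, 22.2 for Cebpb, 11.1 for Cebpd and 8.27 for Ebf2. Neighbours in this order were compared within mice by exact paired sign-flip permutation tests (two-sided, 256 sign patterns), adjusted over the 9 pairs. The higher gene was above its neighbour in 8 of 8 mice from Cebpa down to Ebf1 and from Cebpb to Cebpd (exact permutation p = 0.00781 each, the smallest possible, and 0.0141 adjusted). Cebpd exceeded Ebf2 in 7 of 8 mice (exact permutation p = 0.0234, 0.0352 adjusted). The remaining 3 pairs, Ebf1 and Klf15, Klf15 and Zfp423, and Zfp423 and Cebpb, did not separate (adjusted exact permutation p between 0.342 and 0.422). This order is that of summed rows. By the highest row alone, Ebf1 had a mean of 15.0 TPM, below Cebpb at 22.2, and Zfp423 had 6.01, below Cebpd at 10.9. Cebpa and Pparg, which act late, were above the early factors Cebpb and Cebpd in 8 of 8 mice.

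**Figure D1:**
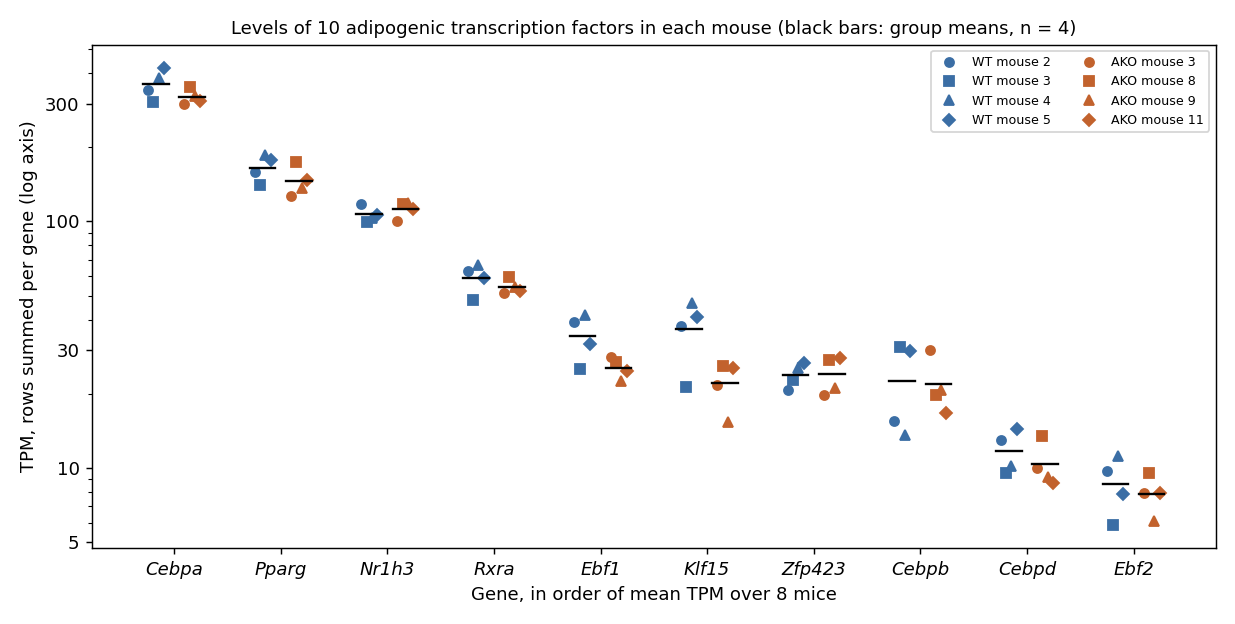
TPM (log axis) of each of the 10 genes in each mouse, WT in blue and AKO in orange, with black bars for group means of 4 mice. Cebpa lies highest at 299 to 421 TPM, Ebf2 lowest at 5.86 to 11.2, and the groups overlap for each gene.

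No gene of the 10 passed the test between genotypes. In limma, fitted to log2(TPM + 1) of the 14172 genes that reached 1 TPM in 4 or more mice, 0 of the 10 had a Benjamini-Hochberg FDR below 0.05, beside 4 of all genes tested (0.0282%, of which 0.0212% higher and 0.00706% lower in AKO), and all 10 passed the filter on low values. At an unadjusted limma p below 0.05 there were 2, Klf15 and Ebf1, beside 673 of all genes (4.75%). That count of 2 rested on single mice: it was 0 without WT mouse 2, WT mouse 4 or AKO mouse 9 and with the highest row per gene, 1 when WT mouse 5 or either of AKO mice 3 and 11 was left out, and 4 without WT mouse 3. The groups overlapped for each of the 10, where 2.44% of genes tested had groups that did not (1.11% had all AKO mice above all WT mice, and 1.33% had them below). Of the 10 log2 differences, AKO minus WT, 7 were negative and 3 positive, beside 46.2% negative over all genes. Their median was -0.14, beside 0.02 over all genes tested, and -0.25 without WT mouse 3.

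**Figure D2:**
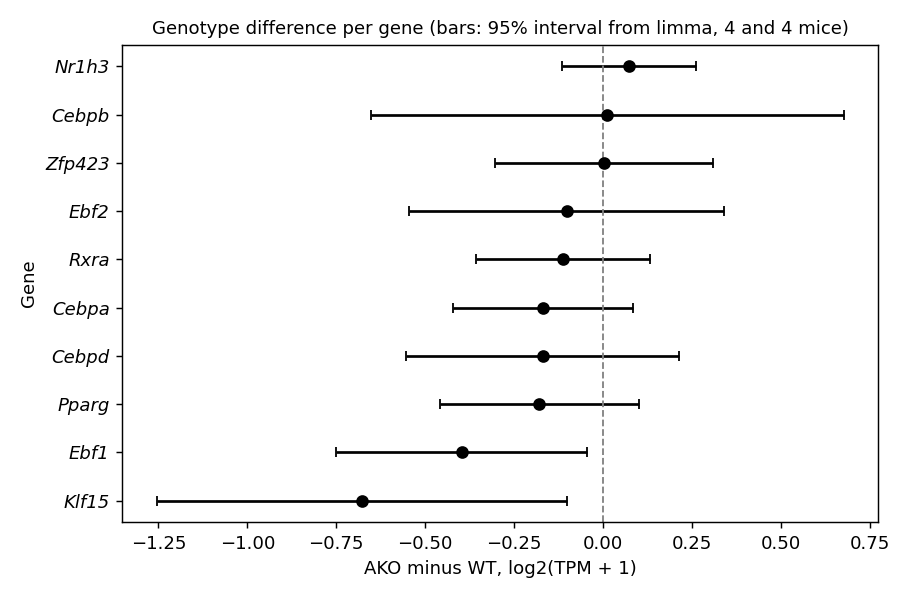
Difference of AKO from WT, in log2(TPM + 1), for each gene, with the 95% interval from limma (4 WT and 4 AKO mice). The points run from -0.68 for Klf15 to 0.07 for Nr1h3, and the intervals of Klf15 and Ebf1 do not include 0 before adjustment over all genes.

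Pparg (ENSMUSG00000000440, chromosome 6), the nuclear receptor required for fat cell formation, had 158, 140.4, 185 and 178 TPM in WT (mice 2, 3, 4 and 5, the order kept below) and, in AKO (mice 3, 8, 9 and 11), 127, 174, 137 and 147. AKO mice 3 and 9 lay below the lowest WT mouse, and AKO mouse 8 lay among the highest values. The group means were 165 ± 20.2 and 146 ± 20.2, a log2 difference of -0.18 (SE 0.12, limma FDR = 0.831), with a 95% interval of the fold from 0.727 to 1.07. Pparg has 9 rows in the tables and 7 transcripts in GENCODE M21, and no row carries a transcript name. Rows 1 and 4 held 46.9% and 40.8% of its level. Row 1 was at 75.3 ± 23.0 TPM (WT) and 70.9 ± 5.01 (AKO), and row 4 at 71.5 ± 18.9 and 55.7 ± 14.5 (limma FDR over 33323 rows = 0.986 and 0.845). Their balance differed between mice of the same genotype, with row 4 at 57.5% of the total in WT mouse 2 and 33.6% in WT mouse 3. Neither row can be assigned to PPARγ1 or PPARγ2.

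Rxra (ENSMUSG00000015846, chromosome 2), the heterodimer partner, had 63.1, 48.1, 66.6 and 58.9 TPM in WT and 51.3, 59.4, 54.5 and 52.3 in AKO. All AKO values lay inside the WT range. The means were 59.2 ± 8.01 and 54.4 ± 3.64, a log2 difference of -0.11 (SE 0.11, limma FDR = 0.859). Row 9 held 83.7% of its level, and 2 of its 10 rows were listed at 0 in each mouse. Nr1h3 (ENSMUSG00000002108, chromosome 2), whose protein also pairs with RXRα, had 118, 99.5, 103 and 106 TPM in WT and 101, 117, 119 and 113 in AKO, with coefficients of variation of 7.50% and 7.23%. The first was the lowest of the 10 in WT, while in AKO Rxra was lower, at 6.70%. Its log2 difference was 0.07 (SE 0.08, limma FDR = 0.880), with a 95% interval of the fold from 0.922 to 1.198.

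A minor row of Nr1h3 separated the groups without passing the test over all rows. Row 9 had 2.75, 1.46, 1.92 and 3.49 TPM in WT and was listed at 0 in AKO mice 3, 8 and 11 and at 0.37 in AKO mouse 9. It held 1.14% of the gene's level (limma log2 difference -1.62, SE 0.23, unadjusted p = 8.86e-05, FDR = 0.192, and 0.733 with a pseudocount of 0.1). Row 7 went the other way, listed at 0 in the 4 WT mice and at 1.96, 2.71, 0 and 3.23 TPM in AKO, and was too low for the filter. A row at 0 can be a failed estimate, and the WT libraries had 62802 to 66112 rows above 0 where the AKO libraries had 66238 to 70374. Of the 61 rows of the 10 genes, 28 passed the filter. Of the 28, 0 had a limma FDR below 0.05 and 3 an unadjusted p below 0.05, beside 0.021% and 5.56% of all rows. Groups did not overlap for 2 of the 28, Nr1h3 row 9 and Ebf1 row 8, beside 3.05% of all rows.

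Cebpa (ENSMUSG00000034957, chromosome 7), which maintains the mature fat cell and its insulin response, had 340.4, 304, 381 and 421 TPM in WT and 299, 352, 321 and 306 in AKO. All 4 AKO mice were below the WT mean, and AKO mouse 3 was below the lowest WT mouse. The means were 361 ± 50.4 and 319.8 ± 23.5, a log2 difference of -0.17 (SE 0.11, limma FDR = 0.831). Its 2 rows differed. Row 1, 90.5% of the level, had 308 ± 80.8 TPM in WT and 308 ± 31.5 in AKO, while row 2 had 97.8, 57.3, 50.1 and 7.53 TPM in WT and 9.36, 4.38, 4.03 and 29.6 in AKO. WT mouse 5 lay within the AKO range for row 2 (limma FDR over all rows = 0.838), and the difference in Cebpa lay in this row: row 1 alone gave a log2 difference of 0.03.

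The early factors Cebpb and Cebpd had no detectable relation to each other. Cebpb (ENSMUSG00000056501, chromosome 2), which is also induced by inflammatory signals, had 15.6, 30.9, 13.7 and 29.96 TPM in WT and 30.1, 19.7, 20.8 and 16.7 in AKO. It was the most variable of the 10 in WT, with a coefficient of variation of 40.7%, and all AKO values lay inside the WT range. Its log2 difference was 0.01 (SE 0.29, limma FDR = 0.995), and the 95% interval of the fold ran from 0.636 to 1.599, the widest of the 10. Cebpd (ENSMUSG00000071637, chromosome 16) had 12.96, 9.53, 10.2 and 14.5 TPM in WT and 10.03, 13.6, 9.21 and 8.69 in AKO. WT mouse 5 and AKO mouse 8 were highest (log2 difference -0.17, SE 0.17, limma FDR = 0.863), and the difference was -0.0726 without the first and -0.29 without the second. Across the 8 mice the pair showed Pearson r = 0.08 (exact permutation p = 0.833, 0.844 adjusted over 36 relations) and Spearman rho = -0.10 (exact permutation p = 0.840, 0.890 adjusted), and r = 0.48 without WT mouse 3 and AKO mouse 3.

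Klf15 (ENSMUSG00000030087, chromosome 6), a zinc finger factor that is induced by glucocorticoids and raises Slc2a4 (GLUT4), had the largest difference of the 10. It had 37.6, 21.2, 46.8 and 40.9 TPM in WT and 21.6, 25.8, 15.4 and 25.4 in AKO. All 4 AKO mice were below the WT mean, but WT mouse 3 lay within the AKO range. The means were 36.6 ± 10.9 and 22.1 ± 4.85, so the AKO mean was 60.2% of the WT mean. The log2 difference was -0.68 (SE 0.25, limma unadjusted p = 0.0263, FDR = 0.831), with a 95% interval of the fold from 0.419 to 0.932. Klf15 stood at place 317 of 14172 genes by p. Row 1 held 90.6% of it, and row 4 had 4.75, 3.61, 4.87 and 0 TPM in WT and 0, 0, 0.76 and 0 in AKO. With the fat cell marker score as a covariate, a fit added after the data were seen, the log2 difference was -0.41 (SE 0.10, limma unadjusted p = 0.00412, FDR = 0.625).

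Ebf1 (ENSMUSG00000057098, chromosome 11), a helix-loop-helix factor of progenitors and fat cells that is also a B cell factor, came next. It had 39.2, 25.3, 41.6 and 31.8 TPM in WT and 28.2, 26.8, 22.6 and 24.7 in AKO. WT mouse 3 lay within the AKO values and the other WT mice above them. The means were 34.5 ± 7.41 and 25.6 ± 2.46, a log2 difference of -0.40 (SE 0.16, limma unadjusted p = 0.0318, FDR = 0.831). Row 9 held 49.8% of the level. Row 8, with 18.6%, had 8.80, 5.35, 7.65 and 5.88 TPM in WT and 4.05, 4.65, 3.26 and 5.12 in AKO, with no overlap (limma log2 difference -0.58, unadjusted p = 0.0120, FDR over all rows = 0.834). The B cell markers Cd79a and Cd79b were at 1.44 ± 0.2998 and 3.20 ± 0.920 TPM (WT) against 2.72 ± 0.919 and 4.22 ± 0.526 (AKO). All 10 progenitor markers had positive log2 differences (median 0.20), while 11 of 12 fat cell markers had negative ones, and the part of these cells in the Ebf1 value was not tested. Against the progenitor score Ebf1 had r = -0.55 (exact permutation p = 0.161, 0.223 adjusted over 36 relations), rho = -0.52 (p = 0.197, 0.283 adjusted) and r = -0.53 without WT mouse 4 and AKO mouse 3. The covariate fit gave Ebf1 a log2 difference of -0.27 (SE 0.11, limma FDR = 0.749).

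Ebf2 (ENSMUSG00000022053, chromosome 14), known for brown and beige fat identity as well as progenitors, had 9.72, 5.86, 11.2 and 7.83 TPM in WT and 7.93, 9.58, 6.11 and 7.89 in AKO. Its AKO values all lay inside the WT range (log2 difference -0.10, SE 0.19, limma FDR = 0.923), and without WT mouse 4 the value was 0.02. Zfp423 (ENSMUSG00000045333, chromosome 8), a zinc finger factor of committed preadipocytes, had 20.7, 22.7, 25.4 and 26.6 TPM in WT and 19.8, 27.4, 21.1 and 27.9 in AKO. AKO mice lay on both sides of the WT range, with 1 below it and 2 above (log2 difference 0.00, SE 0.13, limma FDR = 0.998). Of its 8 rows, rows 1, 2, 3 and 8 each held between 23.1% and 25.1% of its level over the 8 mice together. Within mice the division was uneven, with row 3 at 13.3% to 39.8% and row 1 at 17.4% to 31.6%.

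**Figure D3:**
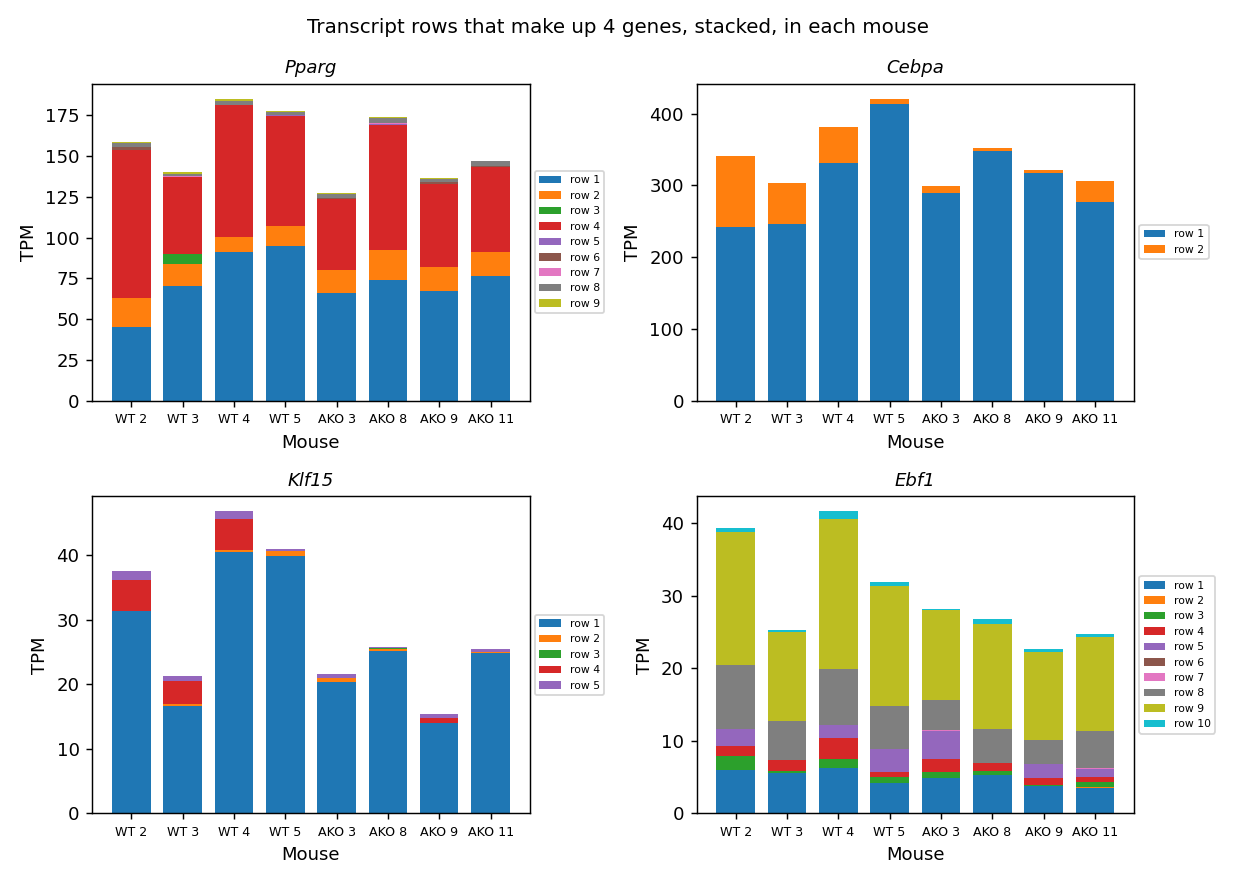
TPM of the transcript rows of Pparg, Cebpa, Klf15 and Ebf1, stacked from 0, in each of the 8 mice; row numbers follow the order under each gene identifier. Pparg is split mainly between rows 1 and 4, Cebpa row 2 is largest in WT mouse 2 at 97.8 TPM, and Klf15 and Ebf1 are low in WT mouse 3 as well as in AKO.

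Ratios of partner genes within a mouse do not depend on the library total and were compared by two-sided exact permutation tests over 70 arrangements, adjusted over 3 ratios. Ebf1 over Ebf2 was 4.04, 4.31, 3.70 and 4.07 in WT and 3.55, 2.80, 3.69 and 3.13 in AKO. Each AKO mouse was below each WT mouse, but WT mouse 4 and AKO mouse 9 were almost level. The log2 ratio averaged 2.01 ± 0.09 in WT and 1.71 ± 0.18 in AKO, a difference of -0.30 (exact permutation p = 0.0286, the smallest possible, and 0.0857 adjusted). From the highest row of each gene it was -0.17 (exact permutation p = 0.286, 0.857 adjusted). Pparg over Rxra stayed between 2.48 and 3.02 in the 8 mice, with a log2 difference of -0.07 (exact permutation p = 0.457, 0.686 adjusted). Cebpa over Cebpb, the late C/EBP against the early one, ranged from 9.84 to 27.9 in WT and from 9.94 to 18.4 in AKO. Its log2 difference was -0.18 (exact permutation p = 0.686, 0.686 adjusted).

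**Figure D4:**
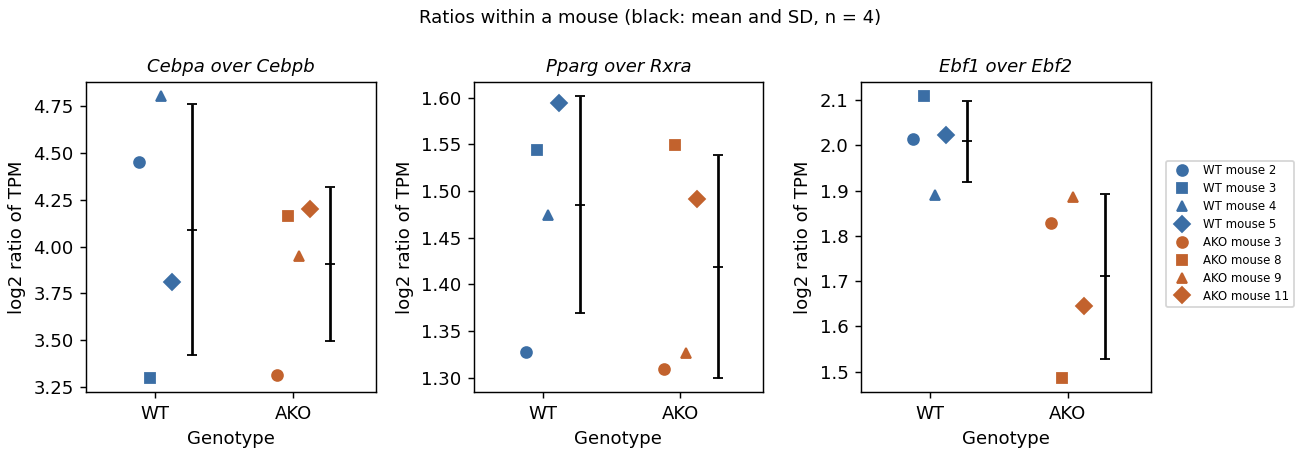
Log2 ratio of TPM within each mouse for Cebpa over Cebpb, Pparg over Rxra and Ebf1 over Ebf2, with mean and SD of 4 mice in black. The Ebf1 over Ebf2 ratio is the 1 of the 3 in which the groups do not overlap, by a small gap between WT mouse 4 and AKO mouse 9 (ratios of 3.70 and 3.69 before the log).

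Levels of several factors went with the markers of the cell types in the pad. A score, the mean log2(TPM + 1) of a marker list, was computed for fat cells, macrophages and progenitors in each mouse. The fat cell score was 10.07, 9.38, 10.4 and 10.005 in WT and 9.53, 9.95, 9.40 and 10.001 in AKO, lowest in WT mouse 3 and AKO mice 3 and 9. The macrophage score was 6.99, 7.62, 6.23 and 7.01 in WT and 7.57, 7.26, 7.83 and 7.01 in AKO, lowest in WT mouse 4. That mouse had the highest fat cell score, and the macrophage score was highest in WT mouse 3 and AKO mice 3 and 9. The fat cell and macrophage scores thus ran nearly opposite over these mice, and a gene's relations with them are not separate results. With the 10 genes against 3 scores and 6 gene pairs, 36 relations were computed over the 8 mice. Of them 4 had an exact permutation p for Pearson r below 0.05 after adjustment, and 0 did by Spearman rho (smallest adjusted value 0.0773).

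Of the 4 relations, 3 were of Klf15 or Ebf2 with a score. Against the fat cell score Klf15 had r = 0.89 (exact permutation p = 0.00422, 0.0402 adjusted) and rho = 0.93 (p = 0.00223, 0.0773 adjusted), and r = 0.83 without WT mouse 3 and AKO mouse 9. Against the macrophage score it had r = -0.90 (exact permutation p = 0.00303, 0.0402 adjusted) and rho = -0.88 (p = 0.00724, 0.0773 adjusted), and r = -0.81 without WT mouse 4 and AKO mouse 9. Ebf2 had r = 0.89 with the fat cell score (exact permutation p = 0.00446, 0.0402 adjusted), rho = 0.79 (p = 0.0279, 0.0773 adjusted) and r = 0.73 without WT mouse 3 and AKO mouse 9. Pparg and Cebpa went together, with r = 0.88 (exact permutation p = 0.00379, 0.0402 adjusted), rho = 0.90 (p = 0.00456, 0.0773 adjusted) and r = 0.85 without WT mouse 4 and AKO mouse 3. With group means removed these 4 values of r were 0.95, -0.90, 0.90 and 0.84.

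No other relation had an adjusted p below 0.05. Pparg and Rxra had r = 0.84 each with the fat cell score (exact permutation p = 0.0123 and 0.0119, 0.0552 adjusted for both), with rho = 0.79 and 0.83 and, without WT mouse 3 and AKO mouse 9, r = 0.82 and 0.83. Ebf1 and Ebf2 had r = -0.81 and -0.83 with the macrophage score (exact permutation p = 0.0111 and 0.0103, 0.0552 adjusted for both). Without WT mouse 4 and AKO mouse 9 these were -0.48 and -0.59. With the fat cell score Ebf1 had r = 0.77 (exact permutation p = 0.0269, 0.0744 adjusted), and 0.65 without WT mouse 3 and AKO mouse 9. Cebpb had the opposite sign, r = -0.70 with the fat cell score (exact permutation p = 0.0535, 0.1205 adjusted) and rho = -0.81, and r = 0.64 with the macrophage score (exact permutation p = 0.0788, 0.158 adjusted). Without the 2 mice farthest from the median of each score these were -0.76 and 0.66. Nr1h3, known from both cell types, had r = 0.13 with the fat cell score and 0.09 with the macrophage score (exact permutation p = 0.764 and 0.844, 0.834 and 0.844 adjusted), and the latter was -0.74 without WT mouse 4 and AKO mouse 9. Of the 12 fat cell markers, 9 are also in the lists of PPARγ and C/EBP targets used here, and all these values share 1 library total per mouse. The part of cell makeup in the genotype differences was not tested, since the covariate fit cannot tell fewer fat cells from less marker RNA per cell.

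**Figure D5:**
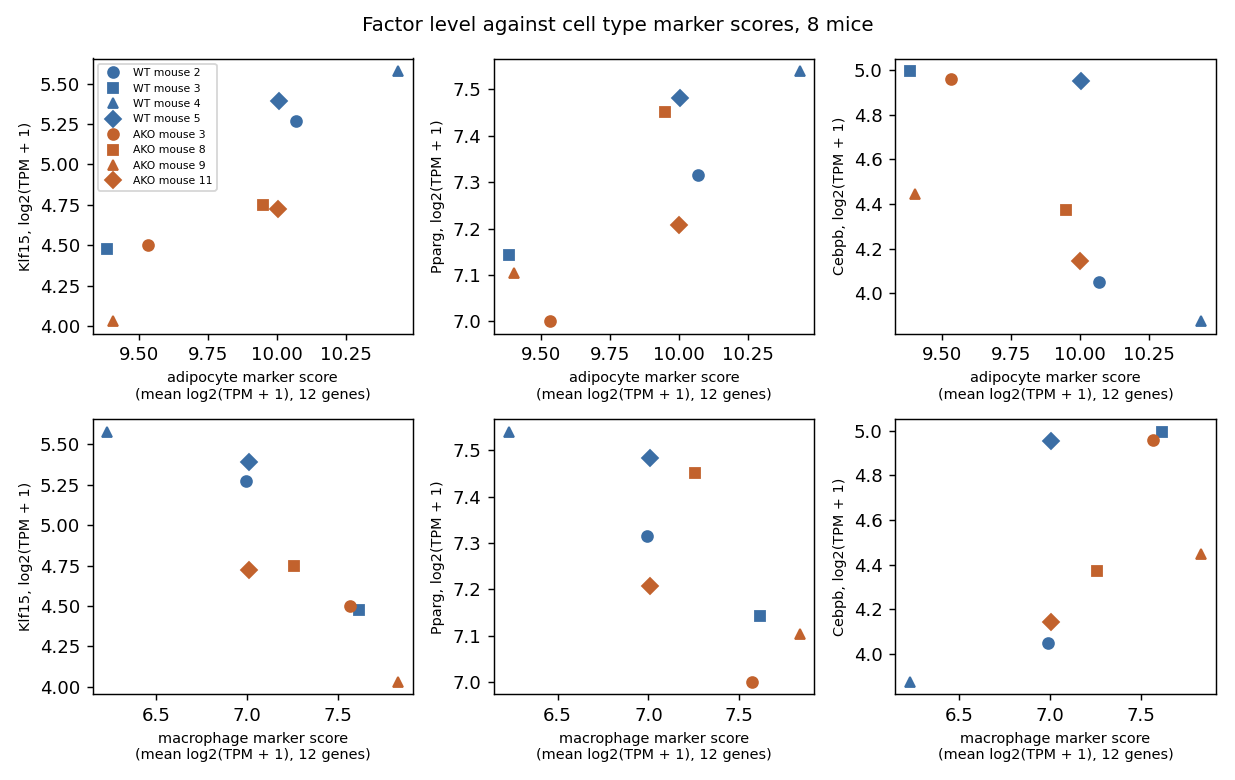
Klf15, Pparg and Cebpb, as log2(TPM + 1), against the fat cell (top) and macrophage (bottom) marker scores of the 8 mice. Klf15 is higher at higher fat cell scores (r = 0.89) and lower at higher macrophage scores (r = -0.90), Cebpb has the opposite signs, and WT mouse 3 lies with AKO mice 3 and 9 at the low end of the fat cell score.

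No relative of the 10 factors passed the test between genotypes. Of 11 (the other PPAR, RXR and LXR genes, Cebpe, Cebpg, Cebpz, Ebf3, Ebf4 and Zfp521), 9 were tested, 0 had a limma FDR below 0.05 and 0 an unadjusted p below 0.05, and their median log2 difference was -0.02. Ppara was at 3.01 ± 0.730 TPM (WT) and 2.41 ± 0.511 (AKO), Rxrg 15.5 ± 1.21 and 13.8 ± 2.38, and Cebpz 16.9 ± 1.09 and 15.2 ± 1.14. In the list of 17 factors that promote fat cell formation 16 were tested, 10 were negative and 6 positive (median -0.01, 0 at an FDR below 0.05). Mlxipl, the glucose-sensing factor ChREBP, had 27.2, 23.9, 24.7 and 27.02 TPM in WT and 21.2, 16.2, 21.8 and 17.0 in AKO, with no overlap (log2 difference -0.42, SE 0.11, limma unadjusted p = 0.00479, FDR = 0.831). Nfib, a chromatin-binding partner factor, had 20.1 ± 1.14 and 18.2 ± 0.161 TPM, also with no overlap (FDR = 0.831), and its relative Nfia 8.92 ± 2.20 and 6.67 ± 1.57. Mlxipl and Nfib were the 2 of the 16 tested with all AKO mice below all WT mice, beside 1.33% of all genes tested, and 0 had them above, beside 1.11%. In the list of 14 factors that restrain fat cell formation 12 were tested, 8 were positive and 4 negative (median 0.02), with Gata2 at 4.76 ± 0.810 and 6.00 ± 0.767 TPM, Smad3 at 10.9 ± 1.31 and 12.4 ± 0.510 and Foxo1 at 19.6 ± 3.59 and 16.1 ± 3.38. Of 14 coregulators 13 were tested, 9 positive and 4 negative (median 0.05), with Med1 at 11.03 ± 1.27 and 9.63 ± 0.727 TPM and Ep300 at 17.2 ± 2.28 and 19.7 ± 2.25.

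Of the genes known as targets of these factors, 0 had a limma FDR below 0.05. The 20 PPARγ targets split evenly, 10 positive and 10 negative, with a median of 0.00. Among them Plin1, which coats lipid droplets, was at 989 ± 174 TPM (WT) and 779.9 ± 88.2 (AKO, limma unadjusted p = 0.0468), the lipase gene Lipe 955 ± 235 and 722 ± 141, and the glycerol-3-phosphate dehydrogenase gene Gpd1 669 ± 78.4 and 759.6 ± 110.03. This PPARγ list shares genes with the fat cell markers, of which 11 of 12 were negative, so its even split does not describe fat cells alone. The part of cell makeup in that split was not tested. All 8 C/EBP targets were negative, with a median of -0.50 and 0 at an unadjusted p below 0.05. In this list the desaturase gene Scd1 had 7822 ± 3925 and 4816 ± 1874 TPM, the angiotensinogen gene Agt 66.3 ± 30.5 and 43.6 ± 21.4 and the insulin receptor gene Insr 22.9 ± 3.62 and 20.04 ± 0.5001. The 5 KLF15 targets were also all negative (median -0.26), beside 11 of 12 fat cell markers (median -0.21), whose part in either list was not tested. Slc2a4 is in both the C/EBP and the KLF15 list, so the lists are not separate. Of the KLF15 targets Prodh, for proline breakdown, had 16.3 ± 5.29 and 11.6 ± 2.58 TPM, Slc2a4 75.9 ± 30.6 and 54.7 ± 16.9, and Bcat2, for branched-chain amino acid breakdown, 100.1 ± 22.3 and 86.3 ± 8.05. The resistin gene Retn shows the spread behind such medians, with 607, 323, 1871 and 1345 TPM in WT and 410.5, 888, 297 and 814 in AKO, and was named after its values were seen.

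The 8 LXR targets were positive for 7 members (median 0.07), with the phospholipid transfer gene Pltp at 646 ± 214 TPM in WT and 862 ± 186 in AKO, Smpdl3a at 152 ± 21.5 and 170.0 ± 12.2 and the cholesterol exporter gene Abcg1 at 35.7 ± 11.5 and 42.6 ± 8.56. Macrophages express several of these genes, and 11 of 12 macrophage markers (median 0.45) and 8 of 8 of lipid-associated macrophages (median 1.21) were positive too. The part of these cells in the LXR list was not tested. Glucocorticoid targets, listed because Klf15 and Cebpd answer to the hormone, were negative for 7 of 10 (median -0.15). Zbtb16 had 31.5 ± 6.70 and 21.7 ± 8.28 TPM, the metallothionein gene Mt2 588 ± 186 and 425 ± 101, and the kinase gene Sgk1 47.3 ± 14.0 and 59.8 ± 8.36.

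The genes closest in pattern over the 8 mice were taken for 4 of the factors from 9304 tested genes with a mean log2 level of at least 3, as a description of these mice. Pparg was most like Cables1 (r = 0.98), AC087871.1 (r = 0.98) and Mcee (r = 0.98), the last an enzyme of propionate use, and 92 genes had r above 0.9 with it. Cebpa was most like Tanc1 (r = 0.95), Trp53bp2 (r = 0.95) and Maco1 (r = 0.94). Cebpd was most like Hlcs (r = 0.95), Susd1 (r = 0.94) and Cyb5rl (r = 0.91). Nr1h3 was most like Cnpy4 (r = 0.97), the cytochrome oxidase subunit gene Cox4i1 (r = 0.96) and Oxsr1 (r = 0.92), with 3 genes above 0.9.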

How the data were processed

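Each library has its own deposited table of 152298 rows, in which the authors give an identifier and a TPM value, and the deposited TPM values sum to about 1000000. The submitters' processing notes list HISAT2, DESeq2 and mm9 without roles or versions, and neither quantifier nor annotation is named there (not given in the sources used here). Rows were summed by Ensembl identifier. Another 401 rows with locus identifiers (0.605% to 0.943% of TPM) stayed out of the tests. Symbols came from GENCODE M21, with 1 of 206 listed symbols matched through a synonym. TPM keeps no depth, so no counting interval is given.

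With limma 3.58.1 in R 4.3.3, log2(TPM + 1) of genes reaching 1 TPM in 4 or more mice was modelled on genotype, with a variance trend and Benjamini-Hochberg adjustment at an FDR of 0.05. This scale understates changes of low genes. Other tests were exact permutations. Alternatives were a pseudocount of 0.1, no filter, the row with the highest level in place of the sum, median-ratio scaling, mitochondrial genes left out, sample weights, leaving out each mouse and, added after seeing the data, a marker score covariate. The members and lists were chosen with earlier results of these data known. Named genes were the 10 factors, Slc16a1, up to 3 members of each list by p, and the 3 closest in pattern for 4 factors, leaving out symbols of Gm and digits or ending in Rik. A gene that this rule names among the coregulators is not reported here. The series describes separate mice, and no libraries were identical.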

Additional observations from a re-analysis of the deposited data

How the results depend on the processing

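In each alternative 0 of the 10 factors passed an FDR of 0.05, and 136 of 150 values of single factors under 15 alternatives kept their sign, with 14 changing it. In log2 units, Cebpa was 0.0288 with the highest row per gene, Zfp423 was -0.0088 with median-ratio scaling, -0.0072 without mitochondrial genes, -0.0649 with sample weights, and between -0.0709 and 0.0871 leaving out a mouse, Cebpb was -0.23 with the covariate and between -0.19 and 0.19 leaving out a mouse, and Ebf2 was 0.0829 with the covariate and between -0.26 and 0.0217 leaving out a mouse. The log2 difference of Cebpa over Cebpb was 0.0130 and that of Pparg over Rxra 0.15 with the highest row per gene, and Cebpa over Cebpb ran from -0.45 to 0.0519 leaving out a mouse. The highest row also gave Pparg -0.0322 and the covariate gave Pparg -0.0778 and Rxra -0.0262. The cause was not tested. Leaving out a mouse, Klf15 lay between -0.91 and -0.52 and Ebf1 between -0.53 and -0.30, both at their largest without WT mouse 3. The ranges were -0.25 to -0.09 for Cebpa (ends without WT mice 3 and 5), -0.27 to -0.12 for Pparg (without AKO mice 8 and 3), -0.21 to -0.0531 for Rxra (without WT mice 3 and 4), -0.29 to -0.0726 for Cebpd, and -0.25 to -0.10 for the median of the 10. Without WT mouse 4, the library with epididymis markers, Klf15 was at -0.54 and Ebf1 at -0.30. No paired analysis was possible because the groups share 1 replicate number, on different mice. The unknown depth limits what can be said of rows under a few TPM.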
